A study of Homo sapiens with 14 samples.

Results

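The alpha-arrestins described here are the 5 genes ARRDC1, ARRDC2, ARRDC3, ARRDC4 and TXNIP, which are not the whole family. They were taken by symbol from the 62699 genes of the count table. Their identifiers there are ENSG00000197070.14, ENSG00000105643.11, ENSG00000113369.9, ENSG00000140450.9 and ENSG00000265972.6 in that order. All 5 passed the filter on low values, an average abundance from edgeR of 1 or more on the log2 CPM scale over the siRNA libraries. A line with a high level can carry a gene past this filter. TXNIP and ARRDC4 were under 1 CPM in the NCI-H1395 control. They were chosen by their measured baseline in each cell line and by the ratio of each ADAR siRNA library to the control siRNA library of its line. Levels and ratios in that contrast are therefore given as a description, with no test. The study sequenced poly(A) RNA in bulk from human cancer cells, giving 14 libraries from 4 lines. Triple-negative breast cancer is the label of MDA-MB-231 and BT-549, NCI-H1395 comes from lung, and AGS comes from stomach. Each line gave 1 library with a negative control siRNA and 2 libraries with siRNA against ADAR, the RNA-editing enzyme that converts adenosine to inosine in double-stranded RNA; these are called libraries 1 and 2. MDA-MB-231 also gave 1 library with NOP14 overexpression and 1 control library labelled PCDH. The sources used here do not give whether libraries 1 and 2 are repeats or different siRNAs, the time after transfection, or the structure of the NOP14 construct. Every line is a single source of cells, so the spread between libraries may be technical.

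Libraries held 13338338 to 27828376 counts. ADAR itself stood at 10.7% to 33.3% of the control of its line in the 8 ADAR siRNA libraries, below the control in each. Levels are CPM, that is, counts scaled to a common library size. Immune markers (PTPRC, CD3E, CD68) summed to at most 1.25 CPM in any library and were at 0 in AGS. The tissue labels of 2 lines had little marker support. In NCI-H1395 the lung markers NKX2-1, NAPSA, SFTPB and SFTPC summed to 0.162 to 1.35 CPM, with 0 of 4 at 1 CPM in every library. In AGS the stomach markers CLDN18, TFF1, TFF2, MUC5AC and GKN1 summed to 1.59 to 2.80 CPM, with 1 of 5 at that level. The stomach set was higher in MDA-MB-231 (9.41 to 15.1 CPM), and the lung set reached 2.21 CPM in AGS. The receptor genes ESR1, PGR and ERBB2 summed to 60.8 to 101 CPM in MDA-MB-231 and 98.6 to 130 CPM in BT-549. AGS held 82.8 to 170 CPM, so this sum did not set the breast lines apart. Nearly all of it was ERBB2, at 59.8 to 101 CPM in MDA-MB-231 and 98.6 to 130 CPM in BT-549. ESR1 and PGR were at most 0.750 and 0.484 CPM in MDA-MB-231, and at most 0.0448 and 0 CPM in BT-549. The sum therefore does not speak against the triple-negative label. Epithelial markers (EPCAM, CDH1, KRT8, KRT18, KRT19) summed to 3481 to 5149 CPM in AGS and to 74.6 to 97.7 CPM in BT-549. In bulk RNA, fewer cells expressing a gene and less RNA per cell cannot be told apart.

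Alpha-arrestins are adaptor proteins with an arrestin fold. Their proline-rich tail motifs bind ubiquitin ligases of the NEDD4 family and bring them to membrane proteins, which are then taken up and sorted. ARRDC1 also recruits TSG101 at the plasma membrane and drives budding of small vesicles. ARRDC3 acts on the beta-adrenergic receptor and on integrin beta 4 and is known in breast cancer cells for reduced expression. TXNIP binds thioredoxin and lowers glucose uptake through the transporter GLUT1 (SLC2A1), and ARRDC4, its close relative, also lowers glucose uptake. Transcription of TXNIP and ARRDC4 is driven by the glucose-responsive factor MondoA (MLXIP) with its partner MLX.

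The promoters of TXNIP and ARRDC4 are shown because both genes had the widest spread of level between lines. That of ARRDC3 is shown because its level was the most even of the 5 in the control siRNA libraries. Each is the 250 bases before the transcript start, from RefSeq on GRCh38.p14. All 5 members matched the table of 27305 such windows, 1 per gene. Capitals mark motifs that were chosen with these sequences in view and searched on both strands. One is CCAAT, the motif of the factor NF-Y, which reads ATTGG on the opposite strand. Another is the E-box CACGTG, a motif of basic helix-loop-helix factors such as MondoA. The paired E-box starts with CACGNG and, after a gap of 5 bases, closes with the second site, which was searched as CNCGNG. The forkhead motif, bound by FOXO factors, is GTAAACA. The palindrome of steroid receptors opens with GNACA and, after a gap of 3 bases, ends with TGTNC. The TXNIP window is chr1:145996580-145996829 (minus strand), that of ARRDC4 is chr15:97960453-97960702 (plus strand) and that of ARRDC3 is chr5:91383318-91383567 (minus strand).
TXNIP: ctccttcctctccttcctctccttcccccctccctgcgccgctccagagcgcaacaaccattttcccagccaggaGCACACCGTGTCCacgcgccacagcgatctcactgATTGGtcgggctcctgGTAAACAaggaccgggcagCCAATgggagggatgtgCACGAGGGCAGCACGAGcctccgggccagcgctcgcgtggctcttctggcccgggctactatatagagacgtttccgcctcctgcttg
ARRDC4: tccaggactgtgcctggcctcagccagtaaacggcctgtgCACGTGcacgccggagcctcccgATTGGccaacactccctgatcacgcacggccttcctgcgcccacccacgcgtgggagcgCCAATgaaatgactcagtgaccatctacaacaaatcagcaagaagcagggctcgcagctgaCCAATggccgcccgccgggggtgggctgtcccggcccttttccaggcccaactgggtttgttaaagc
ARRDC3: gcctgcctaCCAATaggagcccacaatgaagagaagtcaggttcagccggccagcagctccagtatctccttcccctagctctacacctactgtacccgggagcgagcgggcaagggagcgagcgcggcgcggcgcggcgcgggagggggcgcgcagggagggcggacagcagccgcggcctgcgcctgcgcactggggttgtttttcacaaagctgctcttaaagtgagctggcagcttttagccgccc

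The paired E-box lay 88 to 72 bases before the TXNIP start and was in 0.443% of all windows. The single E-box lay 210 to 205 bases before the ARRDC4 start and was in 6.46% of all windows. TXNIP also held the forkhead motif, found in 3.01% of windows, and the palindrome, found in 0.326%. CCAAT was in 4 of the 5 members, all but ARRDC2, and in 33.0% of all windows. TATAAA was in 0 of 5 members and 11.2% of all windows. The windows of ARRDC1 and ARRDC2 were richer in G and C (82.0% and 70.4%) than the median window (57.6%), as were those of TXNIP (63.6%), ARRDC4 (62.8%) and ARRDC3 (65.6%). A match describes these letters only and shows no binding.

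TXNIP was the most line-dependent of the 5. It lies on chromosome 1 at 145992435 to 145996579 of hg38, on the minus strand, and shares no exonic bases with another gene. In the control siRNA libraries it stood at 1863 CPM in AGS, 152 CPM in MDA-MB-231, 8.04 CPM in BT-549 and 0.755 CPM in NCI-H1395. Over the siRNA libraries it ran from 1307 to 2753 CPM in AGS and from 113 to 152 CPM in MDA-MB-231. It ran from 8.04 to 35.8 CPM in BT-549 and from 0.434 to 0.998 CPM in NCI-H1395. The span from NCI-H1395 to AGS was 2467-fold. Of the 13574 genes that passed the filter on low values, 99.5% had a smaller span over the same 4 controls. Per length of transcript (TPM, for comparing genes), TXNIP reached 1629 to 3215 TPM in AGS, where it ranked between 21 and 38 among all genes. It held 88.2% to 91.7% of the summed TPM of the 5 members there, against 55.6% to 68.5% in MDA-MB-231, at most 33.6% in BT-549 and at most 0.825% in NCI-H1395. So the leading alpha-arrestin transcript differed by line: TXNIP in AGS and MDA-MB-231, and ARRDC1 or ARRDC3 in the others.

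ARRDC4 had the same order of lines in its control libraries. It lies on chromosome 15 at 97960703 to 97973833, plus strand, with no exonic overlap. The controls held 113 CPM in AGS, 5.04 CPM in MDA-MB-231, 3.40 CPM in BT-549 and 0.270 CPM (5 counts) in NCI-H1395. Over the siRNA libraries ARRDC4 ran from 62.8 to 135 CPM in AGS and from 3.44 to 5.04 CPM in MDA-MB-231. It ran from 3.40 to 5.51 CPM in BT-549 and from 0.270 to 9.24 CPM in NCI-H1395. Its span was 419-fold, wider than that of 95.2% of the 13574 genes. Per length it reached 69.5 to 140 TPM in AGS, below TXNIP in each AGS library.

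The other members were closer between lines. ARRDC3 (chromosome 5, 91368631 to 91383317, minus strand) stood at 27.7 CPM in MDA-MB-231, 28.2 CPM in BT-549, 31.3 CPM in NCI-H1395 and 42.1 CPM in AGS. That span of 1.52-fold over the control siRNA libraries was wider than that of only 6.39% of the 13574 genes. Between PCDH and control siRNA, the 2 controls of MDA-MB-231, ARRDC3 differed by more, 1.70-fold. ARRDC2 (chromosome 19, 18001132 to 18014102, plus strand) spanned 2.36-fold, from 15.8 CPM in BT-549 to 37.4 CPM in AGS, with 35.6 CPM in MDA-MB-231 and 30.1 CPM in NCI-H1395. BT-549 was the low line for ARRDC2, below the others in every siRNA library. ARRDC1 (chromosome 9, 137605685 to 137615360, plus strand) spanned 5.32-fold, at 75.7 CPM in AGS, 46.8 CPM in NCI-H1395, 18.6 CPM in MDA-MB-231 and 14.2 CPM in BT-549. AGS and NCI-H1395 overlapped with each other at the high end, as did MDA-MB-231 and BT-549 at the low end. The median gene spanned 1.68 on the log2 scale, against 0.60 for ARRDC3, 1.23 for ARRDC2 and 2.40 for ARRDC1.

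**Figure D1:**
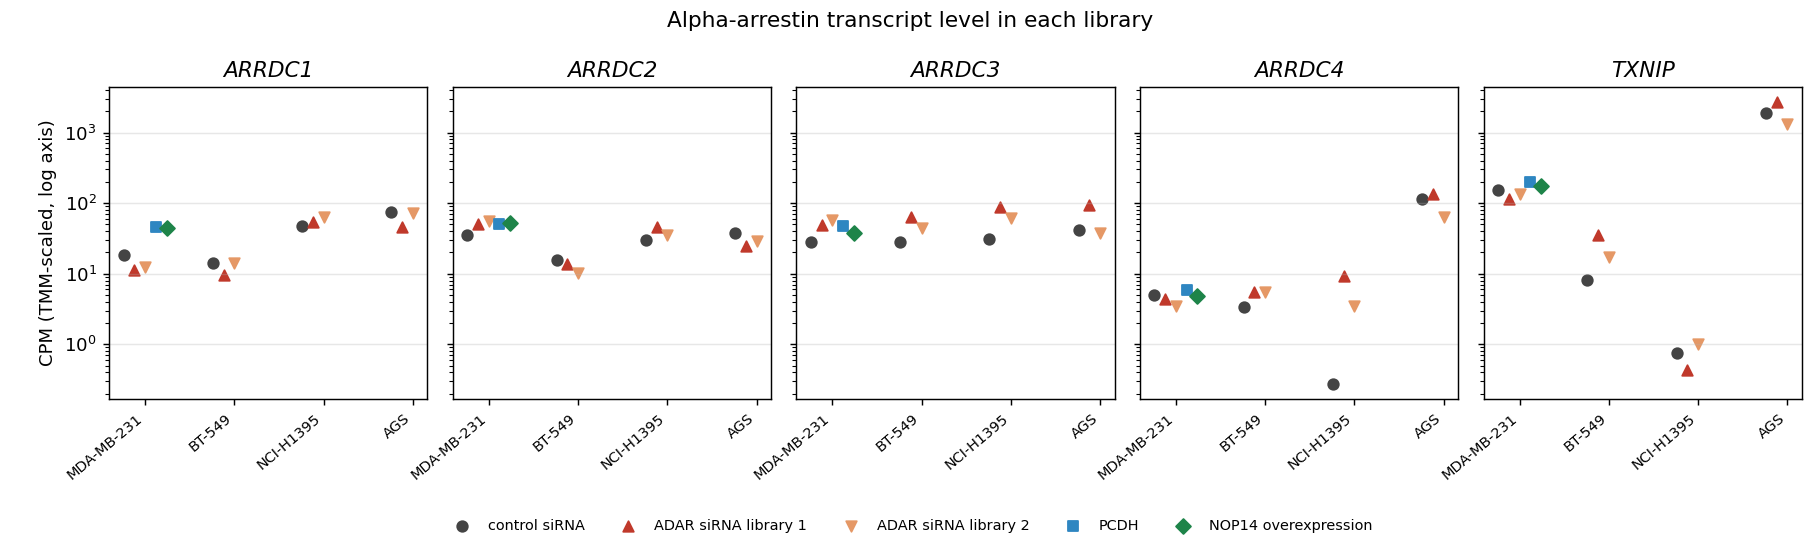
Level of each alpha-arrestin in CPM (log axis) in every library, by cell line, with 1 point per library and colours for control siRNA, ADAR siRNA 1 and 2, PCDH and NOP14. TXNIP runs from below 1 CPM in NCI-H1395 to 1307 CPM and above in AGS, while ARRDC3 in the control siRNA libraries lies between 27.7 and 42.1 CPM.

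With ADAR siRNA, ARRDC3 was above the control of its line in 7 of 8 libraries. In all, 7.57% of the 13574 genes were higher in at least 7 of 8, a count the choice of members already used. MDA-MB-231 held 49.4 and 58.0 CPM in libraries 1 and 2, against 27.7 CPM in the control. The PCDH library, the other control of MDA-MB-231, held 47.1 CPM, near library 1. BT-549 held 64.1 and 44.6 CPM against 28.2 CPM, and NCI-H1395 held 87.2 and 62.3 CPM against 31.3 CPM. In these 3 lines both libraries lay above the control. AGS held 93.3 CPM in library 1 and 37.7 CPM in library 2, on either side of its control of 42.1 CPM. The ratios to the control were 1.78 (95% counting interval 1.59 to 2.0) and 2.09 (1.87 to 2.34) in MDA-MB-231, and 2.27 (2.05 to 2.52) and 1.58 (1.42 to 1.75) in BT-549. They were 2.79 (2.54 to 3.06) and 1.99 (1.80 to 2.21) in NCI-H1395, and 2.22 (2.03 to 2.42) and 0.895 (0.806 to 0.994) in AGS. The intervals cover counting error only. The mean over lines was 0.90 ± 0.30 (SD, n = 4 lines) on the log2 scale, beside a median of -0.03 for all genes.

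ARRDC4 differed most from its control in NCI-H1395, the line with the lowest level. There 5 counts in the control stood against 213 and 59 counts with ADAR siRNA, or 0.270 CPM against 9.24 and 3.46 CPM. The ratios were 34.3 (14.5 to 107) and 12.9 (5.21 to 41.0), with wide intervals set by the 5 control counts. In BT-549 both libraries were higher, at 5.50 and 5.51 CPM against 3.40 CPM. In MDA-MB-231 both were lower, at 4.36 and 3.44 CPM against 5.04 CPM, and the interval of library 1 (0.617 to 1.21) included no difference. AGS held 135 CPM in library 1 and 62.8 CPM in library 2, on either side of the control of 113 CPM. The mean of 0.99 ± 2.03 (SD, n = 4 lines) on the log2 scale rested on NCI-H1395, without which it was 0.00.

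TXNIP was higher in both libraries only in BT-549 of the 4 lines. BT-549 held 35.8 and 17.1 CPM against 8.04 CPM, ratios of 4.46 (3.74 to 5.33) and 2.13 (1.77 to 2.57). MDA-MB-231 held 113 and 137 CPM against 152 CPM, below the control in both. AGS held 2753 CPM in library 1 and 1307 CPM in library 2 around a control of 1863 CPM, ratios of 1.48 (1.46 to 1.5) and 0.702 (0.690 to 0.714). NCI-H1395 gave 14, 10 and 17 counts in the control and libraries 1 and 2, and both intervals (0.228 to 1.39 and 0.613 to 2.90) included no difference, so none was detectable at this depth. The mean over lines was 0.30 ± 0.89 (SD, n = 4 lines) and turned to -0.14 without BT-549.

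ARRDC1 was below the control in MDA-MB-231, at 11.4 and 12.4 CPM against 18.6 CPM, and above it in NCI-H1395, at 53.3 and 63.9 CPM against 46.8 CPM. BT-549 held 9.44 and 14.2 CPM against 14.2 CPM, and AGS held 46.4 and 72.3 CPM against 75.7 CPM, so that library 1 was the lower in both. ARRDC1 was higher than its control in 2 of 8 libraries, and its mean over lines was -0.25 ± 0.41 (SD, n = 4 lines) on the log2 scale.

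ARRDC2, a further adaptor of the family, was above the control in MDA-MB-231 (50.8 and 56.5 CPM against 35.6 CPM) and in NCI-H1395 (46.1 and 35.3 CPM against 30.1 CPM). It was below the control in BT-549 (13.7 and 10.2 CPM against 15.8 CPM) and in AGS (25 and 29.4 CPM against 37.4 CPM). The mean over lines was 0.03 ± 0.55 (SD, n = 4 lines) on the log2 scale, with 4 of 8 libraries higher.

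Counted by line, 1 of 5 members (ARRDC3) was at least 1.5-fold above the control in both libraries of MDA-MB-231, where 5.05% of the 13574 genes were. In BT-549 it was 3 of 5 (ARRDC3, ARRDC4, TXNIP; 3.12% of genes), in NCI-H1395 2 of 5 (ARRDC3, ARRDC4; 5.16%) and in AGS 0 of 5 (4.85%). No member was at least 1.5-fold lower in both libraries of any line, the share of genes being 5.78% in MDA-MB-231, 1.84% in BT-549, 3.12% in AGS and 3.53% in NCI-H1395. ARRDC1 in MDA-MB-231 came nearest, at log2 ratios of -0.70 and -0.58. Counting lines in which both libraries were at least 1.5-fold higher, ARRDC3 had 3 and ARRDC4 had 2, and 2.84% of genes had 2 or more. In AGS 3 of 5 members (ARRDC3, ARRDC4, TXNIP) had their libraries on opposite sides of the control, as did 36.5% of genes. That was 1 of 5 in NCI-H1395 (TXNIP; 30.9% of genes) and 0 of 5 in BT-549 (36.4%) and MDA-MB-231 (21.8%). ADAR itself was at 127 CPM in library 1 and 174 CPM in library 2 of AGS, against 740 CPM in the control, and its part in the split of the AGS libraries was not tested. These counts use the contrast that chose the members and are given as a description.

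**Figure D2:**
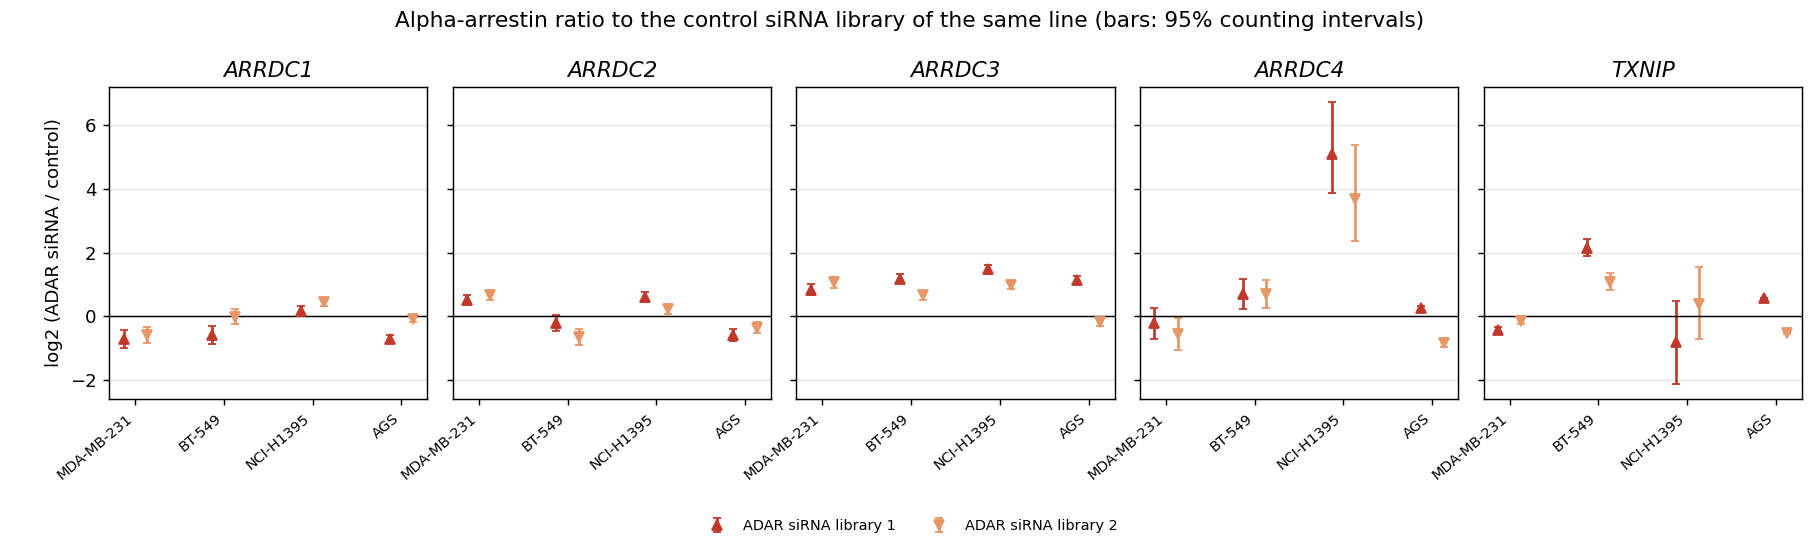
Log2 ratio of each ADAR siRNA library to the control siRNA library of its line for the 5 alpha-arrestins, from scaled counts with no prior count, 1 point per library with bars for 95% counting intervals. ARRDC3 lies above 0 in 7 of 8 libraries; in AGS, ARRDC3, ARRDC4 and TXNIP lie above 0 in library 1 and below 0 in library 2.

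The ADAR siRNA libraries differed from each other in several members. The ratios of both libraries were among the values that chose the members, so these differences are given with no test. ARRDC4 had a log2 difference, library 2 minus library 1, of -1.39 in NCI-H1395, -1.1 in AGS, -0.33 in MDA-MB-231 and 0.00 in BT-549. ARRDC3 was lower in library 2 in 3 of 4 lines and by most in AGS (-1.31), with 0.23 in MDA-MB-231. ARRDC1 went the other way and was higher in library 2 in 4 of 4 lines, by 0.12 to 0.64. TXNIP was lower in library 2 in BT-549 (-1.06) and AGS (-1.07) and higher in MDA-MB-231 (0.28). In NCI-H1395 the TXNIP difference of 1.03 rested on only 10 counts in library 1 and 17 in library 2. ARRDC2 lay between -0.43 and 0.23.

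For the genes around the alpha-arrestins, the same difference was tested across the 4 lines without the controls (edgeR quasi-likelihood, 20470 genes, Benjamini-Hochberg adjustment). That test takes the library number to mean the same in every line, which the labels do not state. None of 78 tested list genes passed at an adjusted p of 0.05, while 6 of all genes did (0.0293%). The lists were chosen with earlier results of these data known. At an unadjusted p under 0.05 there were 11 of 78 (14.1%), against 8.72% of all genes. With no filter on low counts 3 passed (0.686% of all genes), with DESeq2 1 (0.399%), without MDA-MB-231 2 (0.638%) and without BT-549 2 (0.377%).

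NOP14 is a nucleolar protein of small ribosomal subunit assembly. Its overexpression in MDA-MB-231, which played no part in the choice of members, has 1 library per arm and so no test. ARRDC3 held 38.3 CPM with NOP14 and 47.1 CPM with PCDH, a ratio of 0.813 (0.744 to 0.889). TXNIP held 175 CPM against 202 CPM, a ratio of 0.865 (0.829 to 0.901). For ARRDC1 (44.9 against 45.5 CPM), ARRDC2 (52.6 against 50.1 CPM) and ARRDC4 (4.89 against 5.88 CPM) the counting interval included no difference. None of the 5 differed by 1.5-fold, which 1.2% of genes did upward and 1.89% downward. Lower by any amount were 4 of 5 members and 51.6% of genes.

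ARRDC1, ARRDC2, ARRDC3 and TXNIP differed more between the 2 controls of MDA-MB-231 than between NOP14 and PCDH, and ARRDC4 did not. The share of all genes that did so was not counted. Few genes differed by 1.5-fold between NOP14 and PCDH (1.2% upward and 1.89% downward). ARRDC1 was at 45.5 CPM in PCDH and 18.6 CPM in the control siRNA library, a ratio of 2.44 (2.16 to 2.77). ARRDC3 was 1.70-fold, ARRDC2 1.41-fold and TXNIP 1.33-fold higher in PCDH, beside a median of all genes of 0.15 on the log2 scale, and 25.2% of genes were at least 1.5-fold higher. The ARRDC1 level in the PCDH library was thus near that of the NCI-H1395 control (46.8 CPM), while the ADAR siRNA libraries of MDA-MB-231 held 11.4 and 12.4 CPM. The labels do not say how the cells of either control were handled, and the part of handling in this difference was not tested.

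Genes lying beside ARRDC1 on chromosome 9 were low together with it in some libraries. Among the 23 nearest tested genes (137086857 to 138124624, 20 before and 3 after), 1 was higher in library 1 and 0 were higher in library 2 of MDA-MB-231, with median log2 ratios of -0.95 and -0.72 beside -0.70 and -0.58 for ARRDC1. In AGS library 1 the neighbours had a median of -0.65, with 2 of 23 higher, beside -0.70 for ARRDC1, and in AGS library 2 it was 0.02. For BT-549 and for NCI-H1395 the medians lay between -0.05 and 0.09. The part of the neighbourhood in the ARRDC1 values was not tested. ARRDC1-AS1, which overlaps ARRDC1 by 35 exonic bases on the other strand, was at 60.3% and 64.0% of control in MDA-MB-231 and at 101% and 139% in AGS. No source used here gives the strand setting of featureCounts, so reads in such overlaps (also 442 bases of ARRDC2, 145 bases of ARRDC3 with ARRDC3-AS1, and 183 bases of ARRDC1 with a gene on its own strand) may be shared or left out.

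The neighbours of the other members stood closer to 0, apart from those of ARRDC2 in AGS library 1 (median -0.49, beside -0.58 for ARRDC2). For ARRDC3, 40 neighbours had a median of 0.32 in each MDA-MB-231 library, beside 0.83 and 1.06 for ARRDC3, and between -0.19 and 0.14 elsewhere. For ARRDC4 the median lay between -0.11 and 0.01 in all 8 libraries, including NCI-H1395 where ARRDC4 stood at 4.64 and 3.26. For TXNIP in BT-549 it was 0.00 and 0.03 beside 2.14 and 1.08 for TXNIP.

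**Figure D3:**
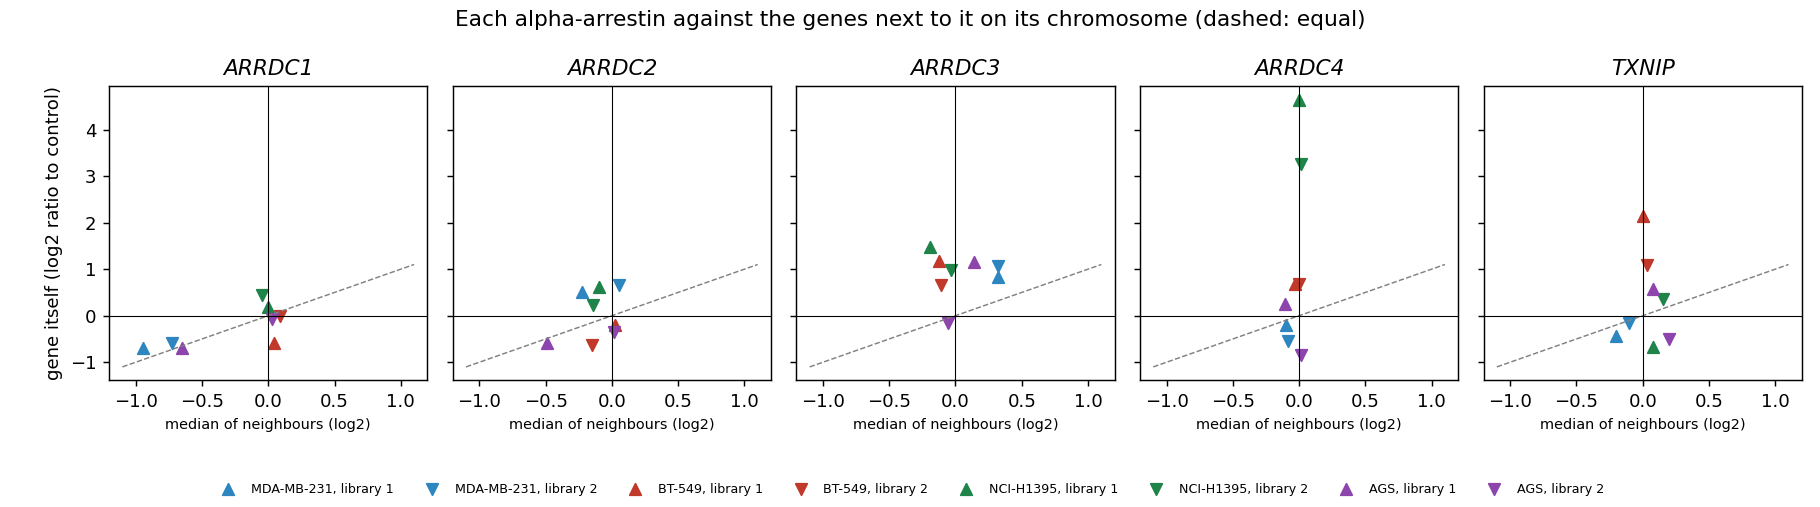
Log2 ratio of each member to the control siRNA library (vertical axis) against the median log2 ratio of the nearest tested genes along its chromosome, up to 20 a side (horizontal axis, drawn at a wider scale), 1 point per ADAR siRNA library, with a dashed line where both are equal. The neighbours of ARRDC1 are low together with it in MDA-MB-231 and in AGS library 1, while those of ARRDC4 and TXNIP stay near 0 where these genes lie far from it.

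The members did not share 1 pattern over the 8 ADAR siRNA libraries. The root mean square distance between log2 ratios was 0.70 for ARRDC1 and ARRDC2, the nearest pair, and 2.22 for ARRDC4 and TXNIP, the most distant. The distance of ARRDC4 and TXNIP came mostly from NCI-H1395, where both had few counts in the control. Log2 ratios there were 4.64 and 3.26 for ARRDC4 and -0.68 and 0.36 for TXNIP. In every ADAR siRNA library of the other lines, ARRDC4 and TXNIP lay on the same side of the control. So did ARRDC3 and ARRDC4 in every ADAR siRNA library of BT-549, NCI-H1395 and AGS. The interval of ARRDC4 in library 1 of MDA-MB-231 (0.617 to 1.21) included no difference. Such agreement was not counted for other pairs of genes, and these values had chosen the members. Among 13573 other genes, those nearest ARRDC3 were CECR2 (0.338), AKAP6 (0.350) and LRRC46 (0.426), where the median gene lay at 1.12. Nearest TXNIP were FRG1JP (0.318), PSD3 (0.379) and MAGI2-AS3 (0.387), with a median of 1.03. Nearest ARRDC4 were TRIB3 (0.985) and ATF3 (0.991), a pair of amino acid and stress response genes, with a median of 2.13. Nearest ARRDC1 were MUC20-OT1 (0.164), SLC66A1 (0.209) and LEMD2 (0.211), with a median of 0.608, and nearest ARRDC2 were SQSTM1 (0.193), NFKBIE (0.198) and DNTTIP1 (0.219), with a median of 0.663.

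The lists of genes around the alpha-arrestins were chosen with earlier results of these data known. Of 85 genes in these 7 lists, 79 were tested with ADAR siRNA over the 4 lines (edgeR, 21944 genes). None passed at an adjusted p of 0.05, while 4 of all genes did (0.0182%). At an unadjusted p under 0.05 there were 17 of 79 (21.5%), 10 higher and 7 lower, against 11.5% of all genes. With no filter on low counts edgeR called 5, beside 0.952% of all genes. DESeq2 called 8 of the 79, beside 5.73% of the 9294 genes to which it gave an adjusted p. The 8 were MXD4 (0.50), NR3C1 (0.36), SLC2A1 (-0.57), HK1 (-0.29), TXN (-0.44), TXN2 (-0.34), EGFR (-0.55) and VPS4A (-0.42), where brackets hold the log2 fold change from DESeq2.

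The list of glucocorticoid receptor and FOXO genes, factors known to act on TXNIP and their targets, had 12 of 13 genes above 0 and a median log2 fold change of 0.39, against 57.3% of all genes above 0 and a median of 0.06. Its smallest p-values belonged to NR3C1, the glucocorticoid receptor (0.39 ± 0.10 SE, edgeR adjusted p = 0.188), SESN3 (1.34 ± 0.39, 0.220) and FOXO4 (0.73 ± 0.23, 0.243). The SESN3 controls held only 18 counts in NCI-H1395, 5 in BT-549 and 1 in AGS. The list was chosen with earlier results of these data known, so its comparison with all genes is a description. Within lines the median of this list was 0.51 in MDA-MB-231, 0.50 in NCI-H1395, 0.33 in BT-549 and -0.04 in AGS. The thioredoxin system, which TXNIP binds, had 13 of 15 genes below 0 and a median of -0.14, led by TXN (-0.40 ± 0.11, 0.188) and TXN2 (-0.31 ± 0.11, 0.295), with the peroxiredoxin PRDX4 above 0 (0.32 ± 0.14, 0.382). Glucose transporters and hexokinases had 4 of 9 tested genes above 0 and a median of -0.12, with SLC2A1 at -0.54 ± 0.14 (0.191), HK1 at -0.26 ± 0.10 (0.343) and SLC2A12 at 0.64 ± 0.35 (0.522).

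The MLX and MAX network, which includes the factors that drive TXNIP, had 8 of 12 genes above 0 and a median of 0.09. MXD4 (0.53 ± 0.14, edgeR adjusted p = 0.181) and MXI1 (0.43 ± 0.15, 0.268), which repress through MAX, lay above 0, and MLX lay below it (-0.23 ± 0.11, 0.460). NEDD4-family ligases and adaptors had 6 of 11 above 0 and a median of 0.07, with HECW1 (0.82 ± 0.35, 0.389), WWP1 (-0.27 ± 0.12, 0.413) and WWP2 (0.23 ± 0.12, 0.486). Cargo and ESCRT sorting genes had 5 of 13 above 0 and a median of -0.03, with EGFR at -0.52 ± 0.11 (0.131), VPS4A at -0.39 ± 0.12 (0.243) and NOTCH1 at -0.20 ± 0.11 (0.493). Other arrestin-fold genes had 6 of 6 tested above 0, but a median of 0.04, under the 0.06 of all genes, with VPS26C (0.28 ± 0.12, 0.383), ARR3 (0.82 ± 0.56, 0.622) and VPS26B (0.03 ± 0.11, 0.944). Within each line none of 82 tested list genes passed in edgeR, where 0.0751% of 23959 genes passed in MDA-MB-231 and 0.00417% in each of the other lines. At an unadjusted p under 0.05 there were 8 list genes in MDA-MB-231 (4.85% of all genes), 9 in AGS (4.98%), 3 in BT-549 (3.1%) and 3 in NCI-H1395 (5.3%). PER1 passed in NCI-H1395 with no filter on low counts (0.174% of all genes) and without library 2 (0.164%).

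**Figure D4:**
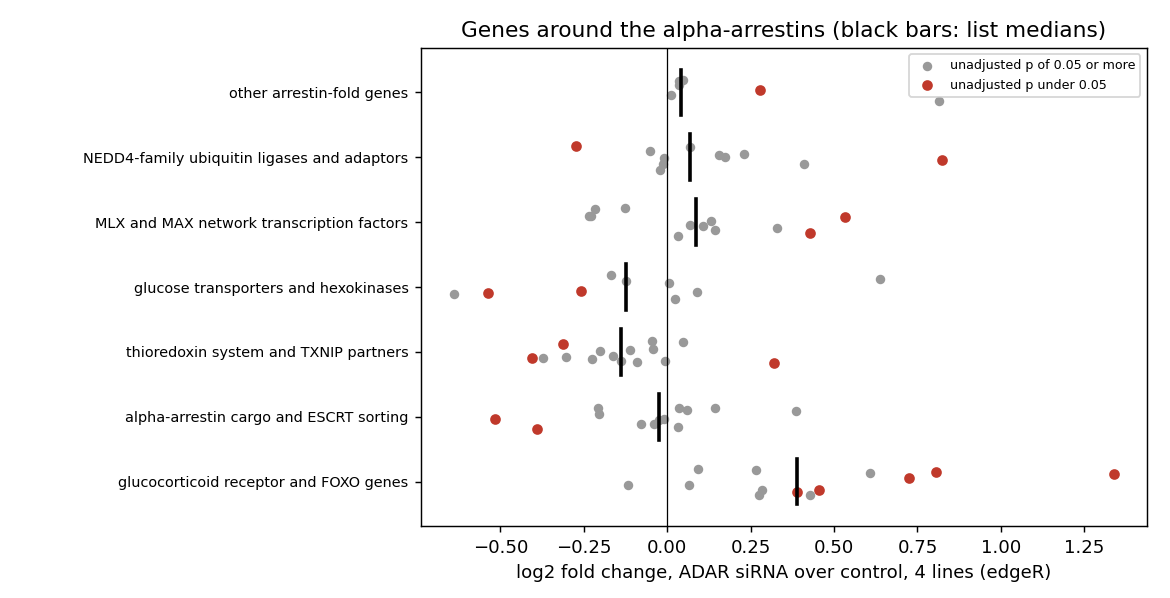
Log2 fold change with ADAR siRNA over the 4 lines (edgeR) for the tested genes of the 7 lists, 1 point per gene, red where the unadjusted p was under 0.05, with a black bar for the median of each list. The glucocorticoid receptor and FOXO list has the highest median, 0.39, and the thioredoxin list the lowest, -0.14.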

How the data were processed

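Integer counts per gene and library were deposited with gene symbols, positions and exonic lengths (62699 genes used). Per the submitters' processing notes, the authors used featureCounts 2.0.6, STAR 2.7.11a and fastp 0.23.4 with the hg38 build. Members and lists were chosen with earlier results of these data known. CPM and log2 ratios (prior count 2) used TMM factors over all 14 libraries. Counts per length gave TPM. Counting intervals (95%, exact conditional binomial) cover counting error only. Tests used edgeR 4.0.16 in R 4.3.3 (filterByExpr, TMM, robust quasi-likelihood, adjusted p threshold 0.05). Over the 4 lines, both ADAR siRNA libraries were summed within each line, and line was a term (3 residual degrees of freedom). Within lines the lone control was assumed to vary like the pairs (4 residual degrees of freedom). Named genes were the members, ADAR, overlapping genes, the 3 smallest p in each list, called genes and the 3 nearest patterns. A gene that met this rule is not reported here. On simulated data with the counts of this design the fit over 4 lines (21784 genes) recovered 82% of 2-fold and 98% of 4-fold changes. The fit within 1 line (22884 genes) recovered 13% and 71%, and that of library 2 against 1 (19630 genes) 69% and 96%. Unchanged genes called were 21 over 4 lines, 12 within 1 line and 30 for library 2 against 1. Changes were put only in genes at a mean of 2 CPM or more. In the fits across lines they were the same in every line, so recovery of changes that differ by line was not simulated. The test of library 2 against 1 was planned for the members too, but their p-values are not given, since the values tested had chosen them. Alternatives were DESeq2 1.42.0, no count filter, another prior count, other scaling, unsummed libraries and leaving out libraries or lines; leaving a line out of the member ratios was chosen after seeing the data. Same-numbered libraries deviated together (r over 13574 genes) between BT-549 and NCI-H1395 (0.38), BT-549 and AGS (0.17) and NCI-H1395 and AGS (0.20), but not between MDA-MB-231 and BT-549 (-0.07), NCI-H1395 (-0.07) or AGS (0.03). Since not every pair of lines did, numbers were not treated as pairs in the main fits of ADAR siRNA against control. The test of library 2 against 1 did take the number as 1 effect shared by all lines, MDA-MB-231 included.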

Additional observations from a re-analysis of the deposited data

Results flagged for a closer look

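In 4 of the 5 members, both ADAR siRNA libraries lay above the control in 1 line and both lay below it in another; 46.1% of the 13574 genes did so, and the difference between lines was not tested. For ARRDC1 the mean log2 ratio was 0.96 higher in NCI-H1395 than in MDA-MB-231. For ARRDC2 it was 1.05 higher in MDA-MB-231 than in AGS. For ARRDC4 it was 4.32 higher in NCI-H1395, with 5 counts in its control, than in MDA-MB-231. For TXNIP it was 1.90 higher in BT-549 than in MDA-MB-231.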

How the results depend on the processing

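With no count filter the list genes called with ADAR siRNA over 4 lines went from 0 to 5 (MXD4, SLC2A1, EGFR, NR3C1, SESN3), and with DESeq2 to 8. Unsummed libraries gave 0 calls both without and with the replicate number as a block. In NCI-H1395, 1 list gene (PER1) was called with no filter and when library 2 was left out. Between ADAR siRNA libraries 2 and 1, the 0 list genes called became 3 with no filter, 1 with DESeq2, and 2 without MDA-MB-231 or without BT-549, and the fitted difference of ARRDC4, given with no test, was -0.76 with no filter and -1.02 without BT-549. The fitted log2 difference of the members, library 2 minus library 1, is given with no test. Leaving out each line in turn, it ran from 0.32 to 0.49 for ARRDC1, -0.21 to -0.03 for ARRDC2, -0.77 to -0.26 for ARRDC3, -1.02 to -0.57 for ARRDC4 and -0.82 to -0.21 for TXNIP. Leaving out 1 library number, the mean log2 ratio to control ran from -0.45 to -0.05 for ARRDC1, -0.02 to 0.09 for ARRDC2, 0.64 to 1.16 for ARRDC3, 0.64 to 1.34 for ARRDC4 and 0.19 to 0.40 for TXNIP. Leaving out 1 line, it ran from 0.79 to 1.03 for ARRDC3 and from -0.15 to 0.20 for ARRDC2. Depth limits TXNIP and ARRDC4 in NCI-H1395, where TXNIP had at most 17 counts per library and the ARRDC4 control had 5.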

Other observations

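Between ADAR siRNA libraries, 3 genes of the lists were called under some settings: EGFR, SLC2A3 and, with no count filter alone, the glucose transporter gene SLC2A8 (log2 difference 0.75, adjusted p = 0.0204 in edgeR). EGFR, a receptor sorted through ESCRT, stood at 207 CPM in library 2 and 419 CPM in library 1 of BT-549, at 41.8 and 96.2 CPM in NCI-H1395, at 245 and 496 CPM in AGS, and at 433 and 457 CPM in MDA-MB-231. It was lower in library 2 in 4 of 4 lines (-0.83 ± 0.17 SE, edgeR adjusted p = 0.0897). SLC2A3, the glucose transporter GLUT3, stood at 23.2 and 85.7 CPM in NCI-H1395 at 458 and 790 CPM in AGS, and at 60.4 and 57.7 CPM in MDA-MB-231, in libraries 2 and 1. In BT-549 it had 1 and 12 counts. It was lower in library 2 in 3 of 4 lines, with a difference of -0.96 ± 0.34 (edgeR adjusted p = 0.452). PER1, a clock gene that also answers to glucocorticoids, held 21.0 CPM in the NCI-H1395 control and 76.8 and 36.5 CPM with ADAR siRNA, while AGS held 174 CPM in its control and 101 and 102 CPM.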
